A study of Sus scrofa with 8 samples.

Results

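The step from anterior foregut endoderm (AFE) to lung progenitor organoids (LPO) was examined as a comparison of 2 LPO libraries with 2 AFE libraries, that is 4 of the 8 libraries of a pig differentiation series. The members were taken by their labels and by no measured value. In the series, pig (Sus scrofa) pluripotent stem cells were taken through definitive endoderm (DE) and AFE to LPO, with 2 libraries of each stage, and messenger RNA was sequenced in bulk. The labels give each library its stage and a number. The cell line, breed, sex, culture medium and day of each stage are not given in the sources used here, and no label states whether both libraries of a stage are separate cultures. P-values therefore measure the spread between these libraries, which may be technical.

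Anterior foregut endoderm is the front part of the embryonic gut tube, from which the lung, the thyroid, the thymus and the oesophagus arise. The first lung cells switch on the transcription factor NKX2-1, and the growing tips of the lung buds keep SOX9 while FGF from the surrounding mesenchyme drives branching. In the animal the epithelium comes from endoderm and the mesenchyme from mesoderm. Cultures made from pluripotent cells can hold both kinds of cell, and epithelial cells can themselves take up mesenchymal genes. In bulk RNA, fewer cells of a type and less RNA per cell cannot be told apart, and neither can a new cell type and a new programme in the same cells.

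At this step 11574 of 19346 genes tested (59.8%) were called, of which 5842 were higher in LPO (30.2% of genes tested) and 5732 were lower (29.6%). The call needed an adjusted p under 0.05 (Benjamini-Hochberg) in edgeR's quasi-likelihood test. Changes of 2-fold or more numbered 4384 higher (22.7%) and 3985 lower (20.6%). For 16336 genes (84.4%) neither LPO library lay within the range of the AFE libraries or the other way round. With so many genes called, a call alone says little, and the sizes of the changes are given with it. An exact permutation test of 2 libraries against 2 cannot go below p = 0.333 for a single gene, so the adjusted p-values rest on the spread shared over all genes. Total counts were 66608214 and 67566269 in AFE and 62929453 and 63210158 in LPO, about 15732363 to 16891567 read pairs each. Within a stage, 98.6% (AFE) and 99.5% (LPO) of genes lay within 2-fold between the 2 libraries.

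Values are given as CPM, counts brought to a common library size with TMM (trimmed mean of M-values) factors, and log2 changes are LPO minus AFE. The scaling matters here. The 100 most abundant genes took 33.6% and 33.7% of the counts in AFE and 22.8% and 22.9% in LPO, and the TMM factors were 0.901 and 0.907 in AFE against 1.26 and 1.27 in LPO. The median log2 change over all genes was 0.09 with TMM and 0.58 with library size alone, and the share of called genes that were higher in LPO was 50.5% and 64.9%. With limma on log2 FPKM (the authors' per-length unit) that share was 66.6% to 66.9%. A log2 change within about 0.5 of 0 is therefore of uncertain sign. On the TMM scale the CPM of all tested genes sum to 1102585 and 1110408 in AFE and to 788026 and 791958 in LPO. Summed levels of the lists below are to be read against these totals.

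Transcript length moved with this step. Among the 10174 well expressed genes that could be assigned a length from the ratio of their count to their FPKM, the median log2 change was -1.97 in genes of up to 1 kb (339 genes), -1.32 from 1 to 2 kb (1357 genes), -0.71 from 2 to 3 kb (1784 genes), -0.31 from 3 to 4 kb (1657 genes), 0.18 from 4 to 6 kb (2473 genes) and 0.52 above 6 kb (2564 genes). In the same bins the median change lay between -0.16 and 0.26 from pluripotent cells to DE, and between -0.07 and 0.19 from DE to AFE. A trend of this size was present at the last step and not at the earlier ones. Its source was not tested. The 41 gene lists used below hold 1150 distinct genes, of which 1069 were in the table and 1047 were tested. Where it bears on them, they are also given after a smooth trend on length was removed from every library, an alternative added after the data were seen. It left 11211 genes called, 6005 higher and 5206 lower.

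**Figure D1:**
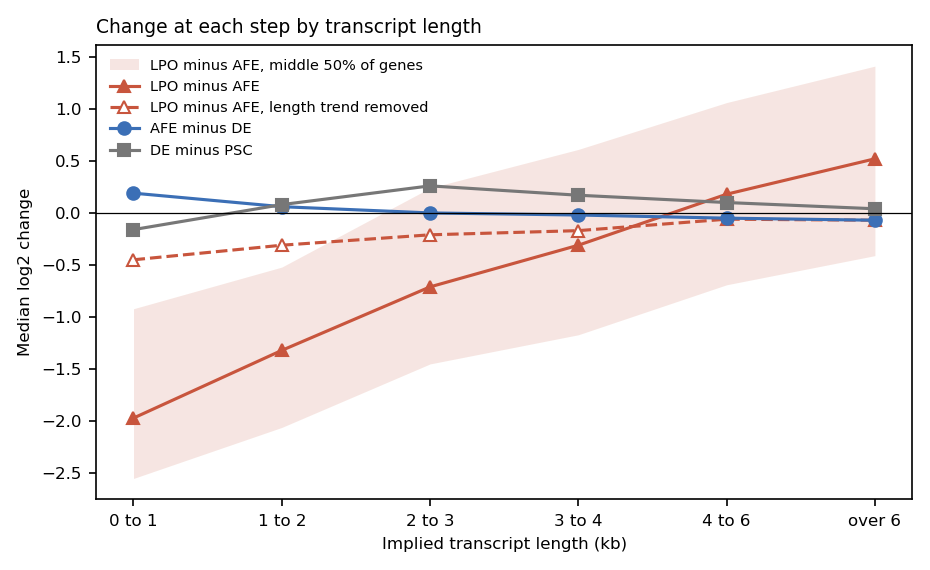
Median log2 change (y axis) of well expressed genes by implied transcript length in kb (x axis) for the 3 steps of the series, with the middle 50% of genes shaded for LPO minus AFE; the dashed line is the same step after removal of the length trend. The line for LPO minus AFE climbs from -1.97 to 0.52, whereas the lines of the earlier steps stay between -0.16 and 0.26.

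The labels were checked against defining genes. NKX2-1, the transcription factor that marks the lung and thyroid fields, was read at 20.2 and 19.5 CPM in AFE and 33.7 and 34.2 CPM in LPO, and all 4 libraries of the earlier stages gave 0. Both LPO libraries lay above both AFE libraries, a 1.71-fold rise (log2 change 0.78, SE 0.14, adjusted p = 0.00448). On the TMM scale most of the level of NKX2-1 was thus already reached in AFE. That depends on the scaling: library size alone raised the median log2 change over all genes from 0.09 to 0.58. On that scale the rise of NKX2-1 is larger and the part reached in AFE smaller. SOX9, which marks the lung bud tips and also cartilage, was read at 16.9 and 15.8 CPM in AFE and 154 and 164 CPM in LPO. The stages did not overlap, and SOX9 rose 9.73-fold (log2 change 3.28, SE 0.16, adjusted p = 1.3e-06). VIM, the intermediate filament of mesenchymal cells, was read at 199 and 202 CPM in AFE and 2246 and 2312 CPM in LPO, a 11.3-fold rise (log2 change 3.50, SE 0.099, adjusted p = 2.1e-07). POSTN, a matrix protein secreted by fibroblasts, was read at 27.4 and 28.2 CPM in AFE and 2482 and 2459 CPM in LPO and rose 88.9-fold (log2 change 6.47, SE 0.067, adjusted p = 1.1e-07). On the per-length scale the LPO libraries held 377.33 and 372.32 FPKM of POSTN and 18.65 and 18.86 FPKM of NKX2-1. The AFE libraries carried the endoderm factor FOXA2 at 96.8 and 87.1 CPM, whereas the foregut and pharyngeal markers PAX9 (1.86 to 10.3 CPM, AFE to LPO) and FOXE1 (0.1 to 0.169 CPM) were low there.

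**Figure D2:**
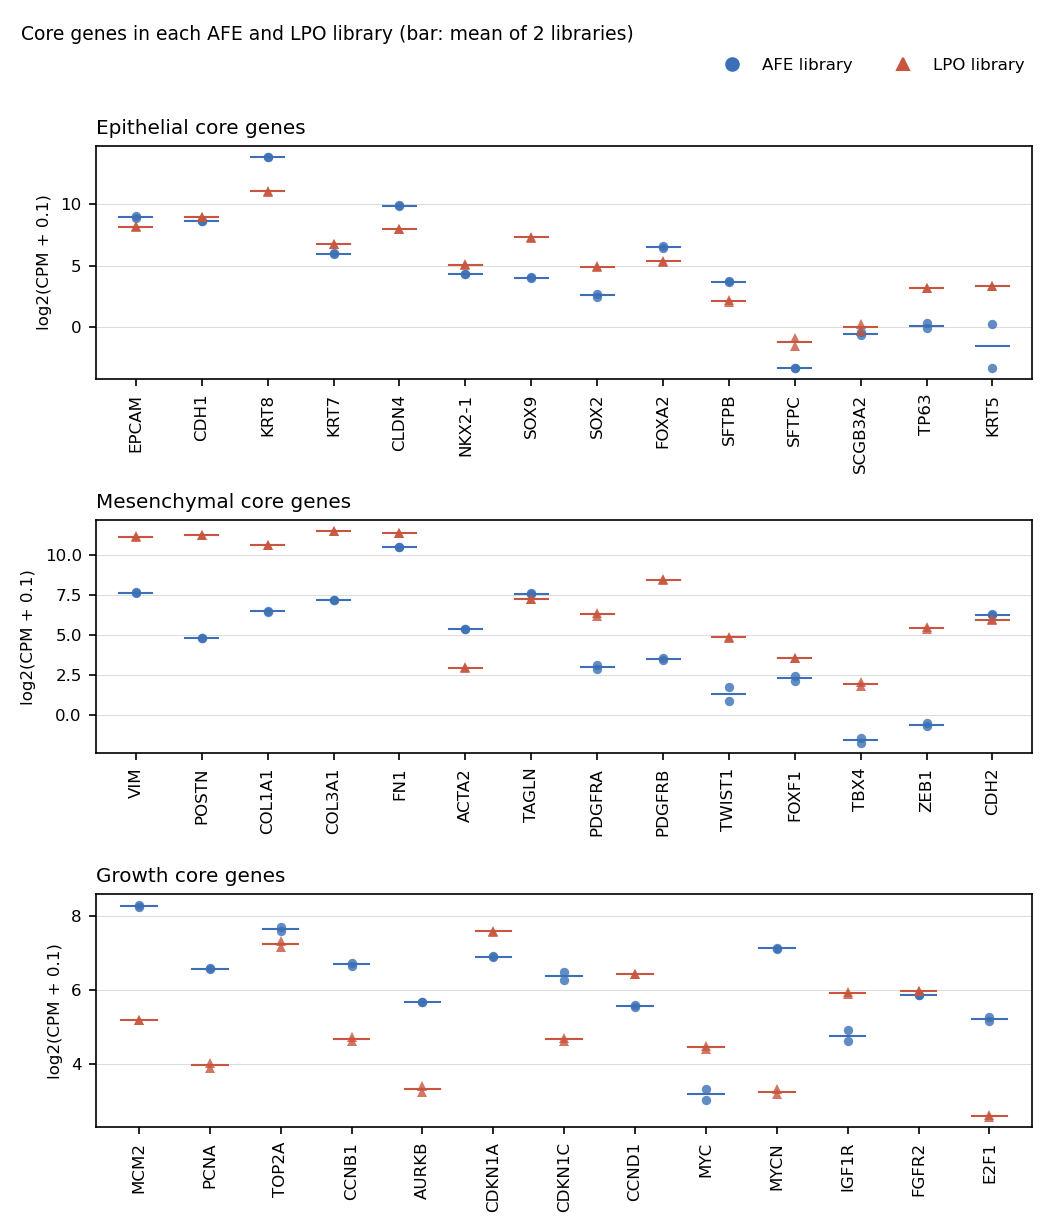
Level of the core epithelial, mesenchymal and growth genes in each library, as log2(CPM + 0.1) on the y axis; circles are AFE libraries, triangles LPO libraries, and bars the means of the log values. Libraries of a stage lie close together except for KRT5 in AFE, and the mesenchymal genes VIM, POSTN, COL1A1 and COL3A1 sit far higher in LPO, while KRT8, ACTA2, MCM2 and MYCN sit lower.

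Epithelial genes moved in both directions. Of 45 tested members of a list of general epithelial junction and keratin genes, 13 rose and 23 fell, where 30.2% and 29.6% of all genes did, with a median log2 change of -0.69 (-0.33 after removal of the length trend, with 12 higher and 22 lower). The falls were led by the simple-epithelium keratins, the filament proteins of single-layered epithelia. KRT8 was read at 14132 and 14655 CPM in AFE and 2059 and 2135 CPM in LPO and fell 6.86-fold (adjusted p = 1.5e-07). Its partner KRT18 was read at 9252 and 9442 CPM in AFE and 516 and 559 CPM in LPO, a 17.4-fold fall (adjusted p = 1.4e-07), and KRT19 fell 5.03-fold, from 5114 to 1016 CPM. The LPO libraries lay far below the AFE libraries for each of these keratins, and the log2 changes after removal of the length trend were -1.98 for KRT8, -3.06 for KRT18 and -1.35 for KRT19. CLDN4, a claudin that seals tight junctions, was read at 902 and 948 CPM in AFE and 246 and 247 CPM in LPO, a 3.76-fold fall, and CLDN3 and CLDN6 had log2 changes of -3.36 and -2.78.

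Other epithelial genes fell less or rose. EPCAM, an adhesion protein of the epithelial surface, was read at 526 and 474 CPM in AFE and 279 and 291 CPM in LPO, a 1.75-fold fall. CDH1 (E-cadherin), which joins epithelial cells, was read at 393 and 383 CPM in AFE and 488 and 493 CPM in LPO and rose 1.26-fold (log2 change 0.34, SE 0.053, adjusted p = 8.0e-04). That rise was small, and it was no longer called after removal of the length trend (log2 change 0.14, adjusted p = 0.0524). KRT7, a keratin of ducts and airways, was read at 60.8 and 65.2 CPM in AFE and 106 and 107 CPM in LPO, a 1.69-fold rise. The splicing factor ESRP1, which sets epithelial splice forms, had a log2 change of 0.52, and the tight junction protein CLDN1 rose 8.84-fold, from 13.4 to 118 CPM. KLF5, a transcription factor of proliferating epithelia, rose 23.3-fold, from 7.86 to 183 CPM. The summed level of the whole list was 36211 and 37337 CPM in AFE and 8849 and 9079.6 CPM in LPO, a difference carried largely by KRT8, KRT18 and KRT19.

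The list of lung progenitor genes leaned upwards: of 33 tested members 17 rose and 7 fell, with a median log2 change of 0.80 (1.39 after removal of the length trend, with 19 higher and 8 lower). SOX2, which marks the proximal airway as SOX9 marks the tips, was read at 5.35 and 6.6 CPM in AFE and 30.3 and 30.7 CPM in LPO, a 5.1-fold rise (adjusted p = 3.7e-05). The change of SOX2 at this step differed from its change at the step before (difference in log2 change -3.58, adjusted p = 3.5e-04), since it had already risen from DE to AFE; over all genes 48.8% passed that test. ETV5, an FGF-induced factor of the tips, was read at 7.62 and 6.5 CPM in AFE and 54.1 and 60.6 CPM in LPO, a 8.11-fold rise. FGFR4, an FGF receptor, rose 2.96-fold, from 3.77 to 11.2 CPM. WNT7B, a WNT ligand of the lung epithelium, had a log2 change of 4.77 (0.189 to 5.22 CPM), and the claudin CLDN18 one of 5.60 (0.23 to 11.2 CPM). HMGA2, a chromatin protein of fetal progenitors, had a log2 change of 2.92 (2.13 to 16.1 CPM).

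Some members of the same list fell. MYCN, the MYC family member of the growing lung bud tips, was read at 139 and 140.2 CPM in AFE and 10 and 9.1 CPM in LPO, a 14.6-fold fall (log2 change -3.87, SE 0.15, adjusted p = 5.6e-07). FOXA2 was 2.26-fold lower in LPO, from 91.9 to 40.6 CPM (adjusted p = 2.1e-05), whereas its relative FOXA1 was at 56.7 to 57.9 CPM with a log2 change of 0.03 that was not called. IRX1, an Iroquois factor, had a log2 change of -3.07 (17.1 to 2.04 CPM). FGFR2, the epithelial receptor for FGF10, was at 57.9 and 58.4 CPM in AFE and 63.2 and 63.1 CPM in LPO and was not called (log2 change 0.12, adjusted p = 0.206). It was called higher with library size alone and with limma on FPKM, and its sign turned to -0.19 after removal of the length trend.

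Genes of mature lung cells were mixed. Of 31 tested members of the list, 9 rose and 7 fell (median log2 change 0.41, or 0.37 with genes at 0 in one stage set at their bound). These shares are no larger than the 30.2% and 29.6% over all genes tested. SFTPC, the surfactant protein made by alveolar type II cells, was listed at 0 in both AFE libraries and at 0.262 and 0.441 CPM in LPO, which makes it at least 1.77-fold higher against the floor of 3 read pairs per library. SFTPB, another surfactant protein, was read at 13.4 and 12.6 CPM in AFE and 4.61 and 4.18 CPM in LPO, a 2.95-fold fall that was not called after removal of the length trend (log2 change -0.54, adjusted p = 0.134). SCGB3A2, an early secretory airway gene, was at 0.602 to 0.926 CPM and was not called (adjusted p = 0.572). FOXJ1, the master factor of ciliated cells, was at 0.726 to 0.784 CPM. Secretory genes were among those that rose: AGR2, which folds mucins, was read at 10.8 and 10.9 CPM in AFE and 728 and 740.4 CPM in LPO, a 67.9-fold rise (adjusted p = 1.1e-06), and CFTR, the chloride channel, had a log2 change of 3.34 (1.85 to 18.7 CPM). CLCA1, a goblet cell protein, was 0 in both AFE libraries and had a mean of 9.72 CPM in LPO. CHGA, a neuroendocrine granule protein, fell 6.89-fold, from 42.2 to 6.12 CPM.

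Genes of basal and squamous epithelium rose more often than they fell, 10 against 5 of 18 tested, with a median log2 change of 2.21 (2.16 after removal of the length trend). TP63, the master factor of airway basal cells, was read at 0.849 and 1.2 CPM in AFE and 9.12 and 9.15 CPM in LPO, a 8.9-fold rise (adjusted p = 2.0e-04). KRT5, the basal keratin, was uneven in AFE, at 1.09 and 0 CPM in AFE and 10.1 and 10.4 CPM in LPO. Both LPO libraries were above both AFE libraries, but the adjusted p of KRT5 was 0.045, rose to 0.134 and 0.138 when LPO replicate 1 or 2 was left out, and was 0.433 with DESeq2. The called members with the smallest adjusted p encode the anchoring complex that ties basal cells to the basement membrane. The integrin chain ITGB4 was read at 10.9 and 10.2 CPM in AFE and 76.3 and 79.6 CPM in LPO, a 7.4-fold rise, COL17A1 rose 17.1-fold, from 3.08 to 52.6 CPM, and the laminin chain LAMB3 rose 19.4-fold. KRT17 had a log2 change of 6.33 (0.326 to 26.6 CPM).

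Genes of earlier endoderm and of the anterior foregut moved in both directions, as did all genes tested (30.2% higher, 29.6% lower). Of 20 tested genes of definitive endoderm, 4 rose and 11 fell, and with library size alone 6 rose and 7 fell. SOX17, an endoderm-founding factor, was read at 16.5 and 15 CPM in AFE and 0.399 and 0.227 CPM in LPO, a 50.1-fold fall (adjusted p = 1.8e-06). KIT, a receptor of early endoderm and of other lineages, went against the list with a 5.9-fold rise, from 29.3 to 173 CPM. Of 28 genes of anterior foregut and pharynx, 8 rose and 12 fell (median log2 change -0.55); with library size alone 10 rose and 10 fell (median -0.06), and after removal of the length trend 7 rose and 9 fell (median -0.02). OTX2, a factor of the most anterior tissues, was at a mean of 3.54 CPM in AFE and 0 in both LPO libraries, at least 23.6-fold lower. TBX3, expressed in lung mesenchyme and foregut, rose 6.03-fold, from 10.1 to 61.1 CPM.

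The list of 30 genes typical of liver or pancreas had 2 rises and 13 falls (median log2 change -1.23, or -0.50 with genes at 0 set at their bound). APOE, a lipid carrier, was read at 1483 and 1594 CPM in AFE and 214 and 229 CPM in LPO, a 6.94-fold fall, and APOA1, another apolipoprotein, fell 3.17-fold, from 264 to 83.4 CPM. C3, the central complement protein, rose instead and was read at 36.8 and 35.4 CPM in AFE and 2856 and 2883 CPM in LPO, a 79.4-fold difference (adjusted p = 2.8e-06); together with it the summed level of the list was higher in LPO (3182 and 3233 CPM) than in AFE (1873 and 1999 CPM) even though most called members fell. Albumin (ALB) was at 0.266 to 0.589 CPM. Among 18 intestine and stomach genes 8 rose and 4 fell, with 4 to 5 higher when any 1 library was left out. CDX2, the master factor of the intestine, was read at 21.1 and 26.6 CPM in AFE and 0.823 and 0.667 CPM in LPO, a 31.9-fold fall (adjusted p = 1.0e-05), whereas CDH17, an intestinal cadherin, was read at 0.375 and 0.534 CPM in AFE and 40.9 and 39.2 CPM in LPO, a 87.8-fold rise (adjusted p = 1.2e-06). Of 10 thyroid genes 2 rose and 2 fell, smaller shares than over all genes tested. The thyroid factor FOXE1 was at 0.1 to 0.169 CPM, near the floor, while GLIS3 rose 54-fold, from 0.698 to 37.9 CPM.

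Mesenchymal genes rose on a broad front. Of 39 tested members of a fibroblast and general mesenchyme list 23 rose and 6 fell, with a median log2 change of 2.76 against 0.09 over all genes. After removal of the length trend the count was 27 higher and 4 lower with a median of 2.98, so the rise was as large without it. CDH11, a cadherin of mesenchymal cells, was read at 5.3 and 5.8 CPM in AFE and 305 and 286 CPM in LPO, a 53.2-fold rise (adjusted p = 1.6e-07). PDGFRA and PDGFRB, the receptors for platelet-derived growth factors that mark fibroblasts and pericytes, were read at 8.5 and 7.12 CPM in AFE and 73.9 and 81.9 CPM in LPO and at 10.6 and 11.6 CPM in AFE and 341 and 359 CPM in LPO. Both receptors were higher in each LPO library than in any AFE library, 9.97-fold (PDGFRA, adjusted p = 2.7e-05) and 31.6-fold (PDGFRB, adjusted p = 4.6e-07). SPARC, a collagen-binding matrix protein, rose 2.93-fold, from 581 to 1699 CPM.

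Of the transcription factors known from mesenchymal cells, ZEB1 and TWIST1 belong to the core panel. The other factors are single examples, chosen after their values were seen. ZEB1, a repressor of E-cadherin, was read at 0.506 and 0.6 CPM in AFE and 45.4 and 42.1 CPM in LPO, a 78.8-fold rise (adjusted p = 9.7e-06). TWIST1, a factor of mesoderm and of epithelial-to-mesenchymal transition, was read at 1.75 and 3.22 CPM in AFE and 29 and 28.3 CPM in LPO, a 11.5-fold rise (adjusted p = 6.7e-04). SNAI1 and SNAI2, further repressors of epithelial genes, had log2 changes of 2.76 and 2.12, and PRRX1, a factor of fibroblasts, one of 5.50 (1.38 to 62.4 CPM). N-cadherin (CDH2), often switched on in that transition, did not rise: it was read at 76.8 and 78.2 CPM in AFE and 60.5 and 63 CPM in LPO, a log2 change of -0.33 whose sign turned with library size alone and with limma on FPKM (0.16 in each). E-cadherin (CDH1) and its repressors were read in the same libraries, and bulk RNA does not say whether they came from the same cells.

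Not every mesenchymal gene rose. The fibulins FBLN1 and FBLN2, matrix proteins, had log2 changes of -1.60 (1387 to 459 CPM) and -1.20, and MFAP5, a microfibril protein, one of -4.33 that was not called after removal of the length trend (adjusted p = 0.104). TAGLN, an actin-binding protein of smooth muscle, was read at 186 and 199 CPM in AFE and 152 and 155 CPM in LPO and changed sign with the scaling: its log2 change was -0.32 with TMM, 0.16 with library size alone and 0.42 after removal of the length trend. FN1 (fibronectin), already abundant in AFE, was read at 1470.2 and 1458 CPM in AFE and 2707 and 2683 CPM in LPO, a 1.84-fold rise (adjusted p = 4.0e-06).

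Genes of fibrillar collagens and of their processing rose in 24 of 31 tested cases and fell in 3 (median log2 change 2.27, and 2.07 after removal of the length trend, with 23 higher and 1 lower). COL1A1 and COL3A1 encode chains of the main interstitial collagens. COL3A1 was read at 144 and 146 CPM in AFE and 2922 and 2946 CPM in LPO, a 20.3-fold rise (adjusted p = 3.0e-06), and COL1A1 at 89.8 and 88.3 CPM in AFE and 1556 and 1609 CPM in LPO, a 17.8-fold rise (adjusted p = 0.00105). COL6A1 and COL6A3, chains of the beaded-filament collagen, rose 9.38-fold and 57.1-fold, the latter from 4.82 to 275 CPM. The enzymes rose as well: LOXL2, which cross-links collagen, was read at 121 and 118 CPM in AFE and 589.8 and 597 CPM in LPO (4.95-fold), and P4HA1, which hydroxylates its prolines and is induced by low oxygen, at 60.9 and 57.7 CPM in AFE and 722 and 733 CPM in LPO (12.3-fold). LOXL4, another cross-linking enzyme, went the other way, from 120.5 to 8.08 CPM (log2 change -3.90). SERPINH1, the collagen chaperone, was at 525 to 554 CPM and was not called. Summed over the list, the level was 2882 and 2934 CPM in AFE and 13162 and 13465 CPM in LPO.

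Basement membrane genes did not share that rise. Their counts are read against 30.2% higher and 29.6% lower over all genes tested. Of 28 tested, 11 rose and 11 fell (median log2 change -0.12), and after removal of the length trend 9 rose and 15 fell (median -0.72), since most of these transcripts are long (median implied length of 6969 bases). Chains of general basement membranes were among those that fell. COL18A1 was read at 2165 and 2294 CPM in AFE and 312 and 324 CPM in LPO, a 7-fold fall (adjusted p = 1.5e-07), COL4A2 fell 2.53-fold, from 684 to 270.1 CPM, and LAMA5, a laminin chain whose gene overlaps ADRM1, had a log2 change of -1.57. Among the chains that rose were LAMA3 (log2 change 5.13) and LAMB3, both found in basal cell laminin, and LAMA4 (log2 change 4.75, from 2.65 to 71.5 CPM), which is found around vessels and muscle. NID2, a linker of laminin and collagen, was read at 13.1 and 13.4 CPM in AFE and 86.7 and 91 CPM in LPO, a 6.72-fold rise.

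Matrix proteases and their inhibitors rose in 20 of 29 cases and fell in 4 (median log2 change 1.67, 2.03 after removal of the length trend). MMP7, the metalloprotease of epithelia, was read at 1.47 and 2.3 CPM in AFE and 288 and 288 CPM in LPO, a 153-fold rise (adjusted p = 2.2e-06), and MMP13, a collagenase, had a log2 change of 6.83 (2.04 to 233 CPM). ADAMTS1, which cleaves proteoglycans, rose 12.9-fold, and PLAT, the tissue plasminogen activator, was read at 144 and 149 CPM in AFE and 682 and 709 CPM in LPO, a 4.74-fold rise. Their inhibitors TIMP3 and TIMP4 had log2 changes of 4.42 and 4.78, whereas TIMP1 was at 109 to 121 CPM and was not called.

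Lung mesenchyme factors rose in 14 of 27 cases and fell in 3 (median log2 change 0.71, 1.16 after removal of the length trend). TBX4, a factor of the lung mesenchyme, was read at 0.261 and 0.2 CPM in AFE and 4.04 and 3.37 CPM in LPO, a 15.9-fold rise (adjusted p = 7.5e-04), and its relatives TBX2 and TBX5 reached 33.8 and 8.59 CPM from 2 and 0.0986. FOXF1, the target of hedgehog in gut and lung mesenchyme, was read at 5.29 and 4.3 CPM in AFE and 11.7 and 11.7 CPM in LPO (log2 change 1.28, adjusted p = 0.019); with any 1 of the 4 libraries left out its adjusted p was 0.0635 to 0.111. HHIP, a hedgehog antagonist of lung mesenchyme, rose 20-fold, from 0.386 to 7.79 CPM. OSR1, a factor of foregut mesoderm, fell 15.8-fold and was read at 291 and 304 CPM in AFE and 16.4 and 21.3 CPM in LPO. The mesenchymal ligand FGF10 was at 3.11 to 3.92 CPM and was not called, and neither was WNT2 (0.18 to 0.275 CPM).

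Of 22 smooth muscle genes 9 rose and 9 fell (median log2 change 0.17), where 30.2% and 29.6% of all genes tested did. With library size alone 12 rose and 4 fell (median 0.66). ACTA2, smooth muscle actin, was read at 41.1 and 42 CPM in AFE and 7.41 and 7.73 CPM in LPO, a 5.48-fold fall (log2 change -2.46, SE 0.26, adjusted p = 7.9e-05; -1.79 after removal of the length trend). CSRP1, a cytoskeletal LIM protein, fell 2.22-fold, from 545 to 246 CPM, and MYH11, the smooth muscle myosin, was at 2.49 to 1.87 CPM and was not called. RGS5, a pericyte marker, was read at 0.898 and 0.75 CPM in AFE and 58.3 and 55.9 CPM in LPO, a 69.1-fold rise (adjusted p = 1.9e-06), and CALD1 rose 2.46-fold. Heart and lateral mesoderm genes fell in 9 and rose in 7 of 23 cases, a share of rises near that over all genes tested (30.2%). The heart myosin MYH7 was read at 193 and 200.3 CPM in AFE and 2.37 and 3.25 CPM in LPO, a 70-fold fall, MYH6 fell 16.2-fold, from 47.3 to 2.91 CPM, and the troponin TNNC1 fell 14.1-fold. The 7 that rose included WT1, a factor of the mesothelium (log2 change 6.28, 0.232 to 18.2 CPM) and TCF21, a factor of visceral mesenchyme (log2 change 4.26, 0.446 to 8.59 CPM).

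Cartilage, bone and tendon genes rose in 14 of 25 cases and fell in 6 (median log2 change 1.29, or 1.10 with genes at 0 set at their bound). The list contains SOX9. Its chief cartilage collagen, COL2A1, was read at 416 and 420.3 CPM in AFE and 97.7 and 99.5 CPM in LPO, a 4.24-fold fall (adjusted p = 4.3e-06), and IHH, the hedgehog ligand of growth plates and gut, fell 25.8-fold, from 56.9 to 2.21 CPM. COL9A3 had a log2 change of 5.48 (0.825 to 36.8 CPM), SPP1 (osteopontin) one of 3.06 (47.6 to 396 CPM), and TNMD, the tendon protein, was 0 in both AFE libraries.

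Markers of further cell types were looked at as a whole. The 29 tested endothelial and blood genes gave 8 rises and 6 falls (median log2 change -0.04), smaller shares than the 30.2% and 29.6% over all genes. Their summed level was 84.2 and 92.3 CPM in AFE and 194 and 190.4 CPM in LPO. The endothelial cadherin CDH5 was at 2.05 to 0.464 CPM, the endothelial adhesion protein PECAM1 at 4.71 to 4.02 CPM and the leukocyte antigen PTPRC at 0 to 0.0249 CPM, so of these 3 defining markers PTPRC was at or near 0 and the endothelial markers were low but read in both stages. Of the members that rose, RUNX1 (log2 change 5.34, 1 to 40.8 CPM) and FLI1 (log2 change 3.64, 1.48 to 18.4 CPM) are blood and vessel factors that other tissues also use, and CD68, a lysosomal protein, rose 6.02-fold. ERG, a further factor of this list, rose 26.1-fold, from 0.14 to 3.72 CPM (adjusted p = 6.3e-04). Neural and neural crest genes rose in 8 and fell in 2 of 18 cases. NCAM1, an adhesion protein of nerve and mesenchyme, was read at 51.7 and 45.2 CPM in AFE and 216 and 221 CPM in LPO, and NES, a filament of progenitors, rose 2.29-fold, whereas the neural crest factor SOX10 was at 0.305 to 0.344 CPM; the summed level was 407 and 394 CPM in AFE and 913 and 910.1 CPM in LPO. Among 20 pluripotency genes 5 rose and 5 fell, again smaller shares than over all genes. POU5F1 was at 0.914 to 0.0252 CPM and NANOG at 0.0326 to 0.126 CPM, and LIN28A, an RNA-binding protein of early embryos, was read at 10.5 and 9.44 CPM in AFE and 0.0748 and 0.113 CPM in LPO, a 104-fold fall (adjusted p = 1.4e-06). The part of other cell types in the changes of the mesenchymal lists was not tested.

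**Figure D3:**
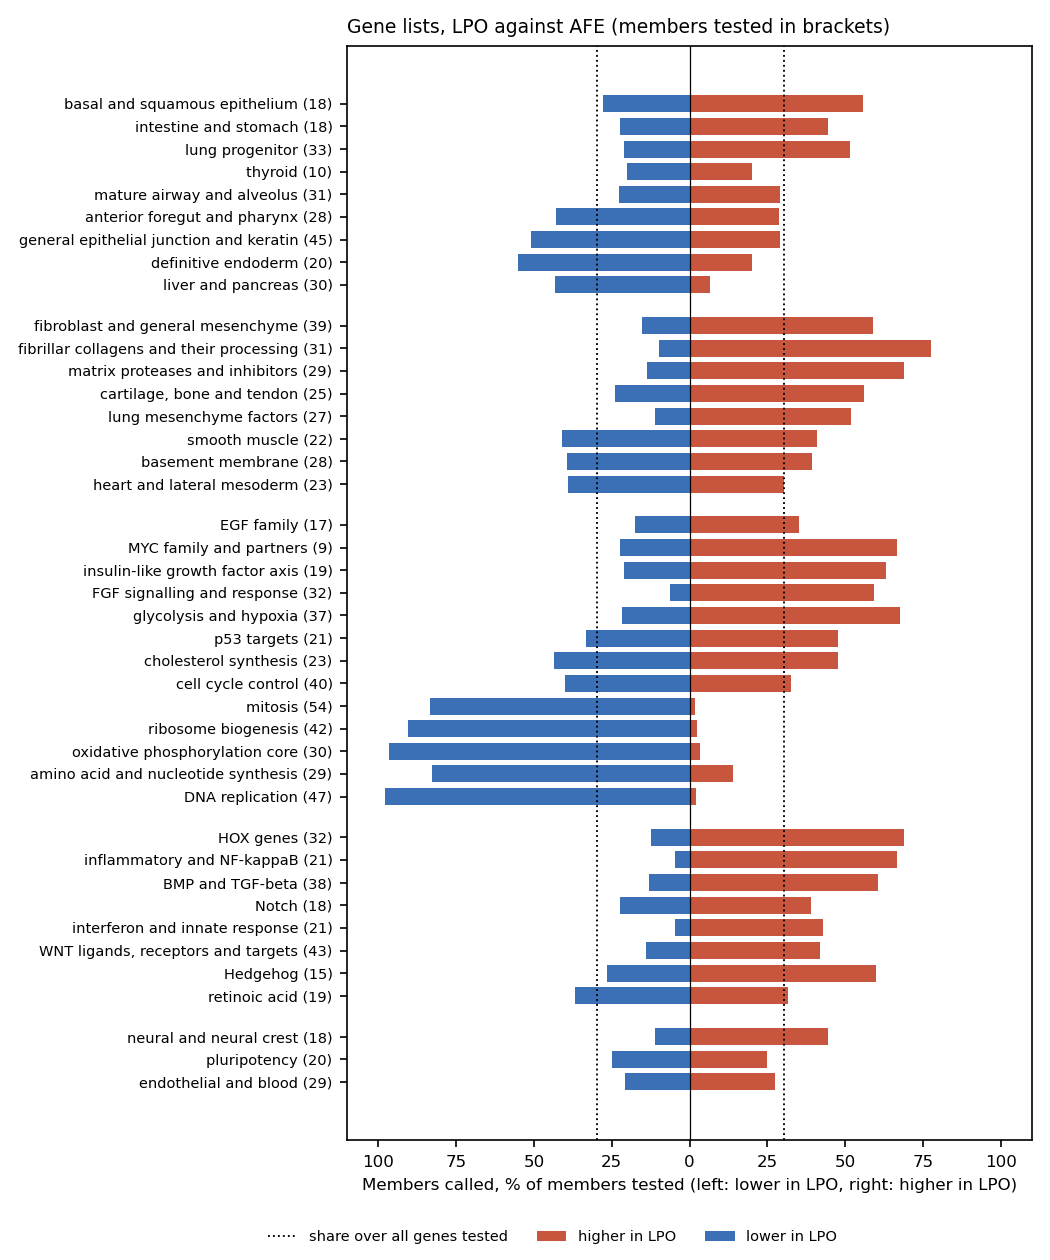
Share of tested members (x axis, percent) that were called higher in LPO (right) or lower (left) for each of the 41 gene lists (y axis, number tested in brackets), in 5 blocks from top to bottom: epithelial, mesenchymal, growth, signalling and other cells. Dotted lines mark the 30.2% and 29.6% over all genes tested; collagens and matrix proteases extend furthest to the right, and DNA replication and oxidative phosphorylation furthest to the left.

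The machinery of DNA replication fell. Of 47 tested DNA replication genes 46 fell and 1 rose (RFC1, log2 change 0.51, and -0.19 after removal of the length trend), with a median log2 change of -2.19 (-1.77 after removal of the length trend, with 45 lower). MCM2, a subunit of the helicase that opens DNA, was read at 301 and 315 CPM in AFE and 36.9 and 36.8 CPM in LPO, a 8.36-fold fall (log2 change -3.06, SE 0.069, adjusted p = 1.5e-07). Its gene overlaps an unnamed gene, so its counts are less certain, but MCM3, MCM4 and MCM10 had log2 changes of -2.55, -2.48 and -2.58. PCNA, the sliding clamp of the polymerases, was read at 96.3 and 95 CPM in AFE and 15 and 16.3 CPM in LPO, a 6.12-fold fall, GINS2 fell 12.9-fold, and TYMS, which makes thymidylate, was read at 271 and 249 CPM in AFE and 32.9 and 34.5 CPM in LPO, a 7.71-fold fall. CDT1, which loads the helicase, had a log2 change of -4.85 (119.5 to 4.16 CPM) and TK1, thymidine kinase, one of -4.34. The summed level of the list went from 4438 and 4465 CPM in AFE to 1028 and 1029.9 CPM in LPO.

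Genes of mitosis fell in 45 of 54 cases and rose in 1 (KIF11, log2 change 0.48), with a median log2 change of -1.20 (-1.46 after removal of the length trend, with 47 lower). With library size alone 38 fell and 7 rose. BIRC5 (survivin), a subunit of the chromosomal passenger complex, was read at 179 and 176 CPM in AFE and 16.2 and 15.2 CPM in LPO, a 11.3-fold fall (adjusted p = 1.5e-07), and its partner AURKB, the kinase, at 51.3 and 51.7 CPM in AFE and 10.5 and 9.43 CPM in LPO, a 5.18-fold fall. CDC20, the activator of anaphase, fell 8.93-fold, from 289 to 32.4 CPM, and the mitotic cyclin CCNB1 was read at 101 and 106 CPM in AFE and 24.7 and 26.7 CPM in LPO, a 4.04-fold fall. The fall was not even. TOP2A, which untangles chromosomes, was read at 208 and 194 CPM in AFE and 159 and 142 CPM in LPO, a log2 change of -0.42 that became 0.07 with library size alone and with limma on FPKM, and NUSAP1 and ECT2 were at 60.8 to 56.5 CPM and 24.8 to 23.2 CPM and were not called.

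Regulators of the cell cycle moved in both directions, with 13 higher and 16 lower of 40 tested (median log2 change -0.23), and 17 higher and 15 lower with library size alone. Over all genes tested 30.2% were higher and 29.6% lower. Among the drivers E2F1, the activator of replication genes, was read at 38.7 and 35.7 CPM in AFE and 6.17 and 5.93 CPM in LPO, a 6.14-fold fall (adjusted p = 4.7e-06), and CKS2, a subunit of the cyclin-dependent kinases, fell 3.59-fold. CDK4, the kinase of early cell cycle, fell 4.33-fold, from 342 to 79.1 CPM, though its gene overlaps TSPAN31. CCND1, its cyclin, went up and was read at 47.1 and 48.2 CPM in AFE and 85.9 and 87 CPM in LPO, a 1.81-fold rise. The brakes RB1 and RBL2, pocket proteins that hold E2F factors in check, had log2 changes of 2.86 (3.34 to 24.2 CPM) and 4.22 (2.56 to 47.6 CPM). The kinase inhibitors differed: CDKN1A (p21) was read at 122 and 118 CPM in AFE and 194 and 191 CPM in LPO, a 1.61-fold rise, and CDKN1B (p27) had a log2 change of 2.07 (5.11 to 21.4 CPM), while CDKN1C (p57) was read at 89 and 77.9 CPM in AFE and 26.3 and 24.6 CPM in LPO, a 3.28-fold fall. The antiproliferative genes BTG1 and BTG2 had log2 changes of 3.09 and 4.71. Targets of p53 as a list rose in 10 and fell in 7 of 21 cases. BAX, which opens mitochondria in cell death, fell 5.19-fold, from 189 to 36.4 CPM, and ZMAT3, an RNA-binding target, rose 6.48-fold.

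Ribosome biogenesis fell in 38 of 42 cases and rose in 1 (WDR43, log2 change 0.23), with a median log2 change of -1.39 (-1.52 after removal of the length trend, with 39 lower). FBL, which methylates ribosomal RNA, was read at 436 and 464 CPM in AFE and 33.8 and 38.7 CPM in LPO, a 12.4-fold fall (adjusted p = 3.9e-07), LYAR, a nucleolar protein, was 10.2-fold lower, and NCL (nucleolin) had a log2 change of -1.29 (1169.8 to 479 CPM). In the MYC family, which drives ribosome production, members moved in opposite directions, and of 9 tested members and partners 6 rose and 2 fell. MYCN fell, as given above, whereas MYC was read at 8.08 and 10.1 CPM in AFE and 22.4 and 21.4 CPM in LPO, a 2.41-fold rise (log2 change 1.27, adjusted p = 2.8e-04). On the per-length scale MYCN went from a mean of 46 to 4.43 FPKM and MYC from 2.4 to 8.15 FPKM. The antagonists MXD1 and MXI1, which bind the same partner, rose 9.94-fold (from 6.47 to 64.3 CPM) and 5.54-fold.

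Synthesis of amino acids and nucleotides fell in 24 of 29 cases and rose in 4 (median log2 change -1.89, and -1.63 after removal of the length trend). ODC1, the first enzyme of polyamine synthesis, was read at 339 and 322 CPM in AFE and 42.7 and 42.2 CPM in LPO, a 7.79-fold fall (adjusted p = 4.3e-07). CTPS1, which makes cytidine nucleotides, fell 9.28-fold, from 68.5 to 7.39 CPM, ATIC, of purine synthesis, fell 3.69-fold, and PHGDH, the first enzyme of serine synthesis, had a log2 change of -3.46 (804 to 73 CPM). The exceptions that rose were the stress-induced genes DDIT3 (log2 change 0.91), TRIB3 (1.49) and SLC7A11 (3.44), and PPAT (2.67), of purine synthesis.

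Genes of oxidative phosphorylation fell, while a mixed list of glycolysis and hypoxia genes rose more often than it fell. Of 30 genes of oxidative phosphorylation 29 fell and 1 rose (NDUFS1, log2 change 0.50), with a median log2 change of -1.74 (-1.27 after removal of the length trend, with 27 lower). These transcripts are short, with a median implied length of 1664 bases. CYCS (cytochrome c) was read at 116 and 119.6 CPM in AFE and 21.5 and 23 CPM in LPO, a 5.29-fold fall (adjusted p = 2.6e-07), UQCRC1, of complex III, fell 4.88-fold, and COX8A, of complex IV, fell 6.98-fold; their log2 changes after removal of the length trend were -2.16, -1.67 and -1.19. Of 37 genes of glycolysis and hypoxia 25 rose and 8 fell (median log2 change 1.01, 1.36 after removal of the length trend). Genes induced by low oxygen were among those that rose. VEGFA, the vascular growth factor, was read at 49.2 and 47.3 CPM in AFE and 554 and 560.1 CPM in LPO, a 11.5-fold rise (adjusted p = 1.5e-07), ADM (adrenomedullin) rose 9.84-fold, from 12.9 to 127 CPM, and KDM3A, a histone demethylase, rose 8.88-fold. NDRG1 and EGLN3, further targets of the hypoxia factors, had log2 changes of 3.07 and 2.96. CA9, a carbonic anhydrase and a classic target, had a log2 change of -1.78 (21.3 to 6.21 CPM). Among the enzymes of glycolysis, GAPDH had a log2 change of -0.33 (turned to 0.16 with library size alone and to 0.82 after removal of the length trend), LDHA one of 0.57 and HK2 one of 2.54. The KEGG pathway Glycolysis / Gluconeogenesis did not rise as a whole. Of its 54 tested genes 17 rose and 24 fell (median log2 change -0.24, -0.07 after removal of the length trend).

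Cholesterol genes split, with 11 higher and 10 lower of 23, where 30.2% and 29.6% of all genes tested were. STARD4, a sterol carrier, rose 13.3-fold, CYP51A1 and SC5D, which modify the sterol rings, rose 4.23-fold and 4.56-fold, and PMVK and MVD, of the mevalonate pathway, had log2 changes of -2.94 and -1.62.

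**Figure D4:**
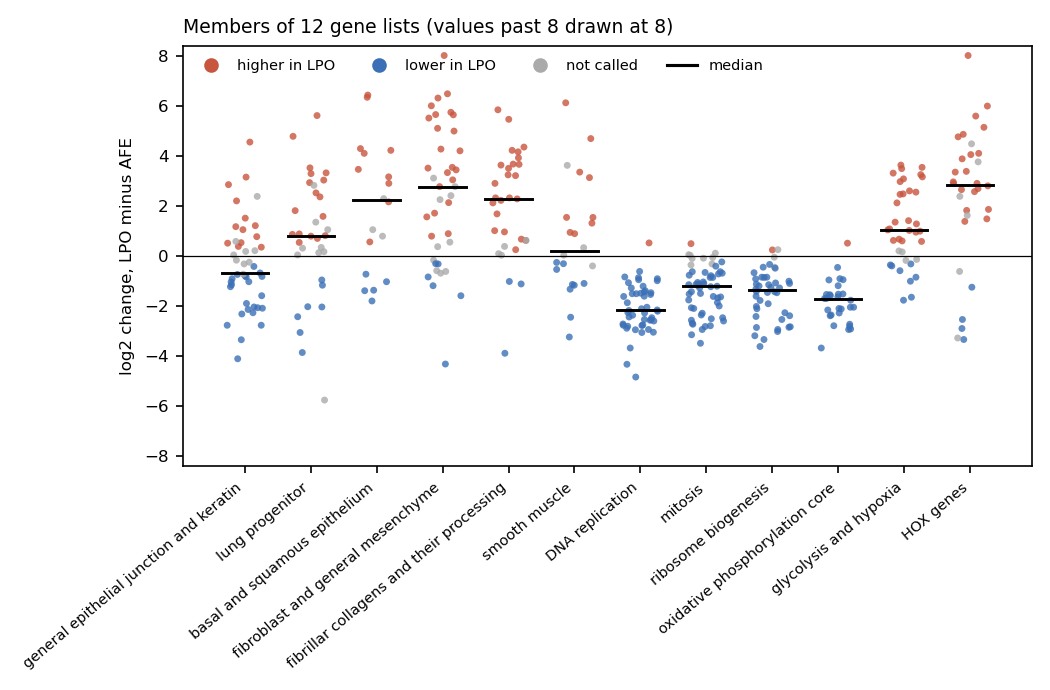
Log2 change, LPO minus AFE (y axis), of each tested member of 12 of the gene lists (x axis), coloured by call, with the list median as a bar; values past 8 are drawn at 8. DNA replication, mitosis, ribosome biogenesis and oxidative phosphorylation lie almost wholly below 0, with medians from -2.19 to -1.20, while the fibroblast, collagen and HOX lists have medians from 2.27 to 2.83.

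Growth factor pathways were read list by list, against 30.2% higher and 29.6% lower over all genes tested. Of 32 FGF genes 19 rose and 2 fell (median log2 change 1.03, or 0.86 with genes at 0 set at their bound). Receptors FGFR3 and FGFR1 had log2 changes of 1.82 (21.2 to 74.8 CPM) and 0.75 (115 to 193 CPM). Response genes rose: ETV5 as above, DUSP4, a phosphatase that damps ERK, was read at 15.8 and 18.3 CPM in AFE and 109.6 and 103 CPM in LPO, a 6.26-fold rise, and EGR1, an immediate early gene, was read at 3.98 and 6.05 CPM in AFE and 116 and 107 CPM in LPO, a 22.2-fold rise. The phosphatase DUSP5 was among the exceptions (log2 change -1.68). Of 17 EGF family genes 6 rose and 3 fell, a share of rises near that over all genes. EGFR, the receptor, was read at 9.42 and 10.4 CPM in AFE and 171 and 167 CPM in LPO, a 17-fold rise (adjusted p = 2.8e-07), LRIG3 rose 3.53-fold, and the ligand NRG1 fell 4.29-fold, from 21.6 to 5.04 CPM.

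In the insulin-like growth factor axis 12 of 19 rose and 4 fell (median log2 change 1.15, 0.98 after removal of the length trend). IGF1R, the receptor, was read at 30.2 and 24.8 CPM in AFE and 59.8 and 62.2 CPM in LPO, a 2.22-fold rise (adjusted p = 5.8e-04). The binding proteins, which bind the ligands, moved apart. IGFBP4 was read at 11.3 and 9.75 CPM in AFE and 241 and 241 CPM in LPO (22.9-fold higher). IGFBP5 was read at 70.6 and 72.1 CPM in AFE and 724 and 728 CPM in LPO (10.2-fold higher). In contrast, IGFBP6 was read at 392 and 402 CPM in AFE and 39.9 and 42.4 CPM in LPO (9.65-fold lower). GRB10, an adaptor that restrains the receptor, fell 2.93-fold. The ligand gene IGF2 was not analysed here.

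BMP and TGF-beta genes rose in 23 of 38 cases and fell in 5 (median log2 change 1.28). TGFB2, a ligand, was read at 3.33 and 2.73 CPM in AFE and 97 and 97.7 CPM in LPO, a 32.1-fold rise (adjusted p = 1.7e-06). The receptors TGFBR2 and BMPR2 had log2 changes of 3.60 (4.19 to 50.8 CPM) and 3.41 (3.6 to 38.4 CPM). Among targets, TGFBI, a matrix protein induced by TGF-beta, was read at 40.4 and 41.3 CPM in AFE and 715 and 719 CPM in LPO, a 17.6-fold rise, and SKIL, a feedback inhibitor, rose 10.4-fold. The BMP target ID1 fell, with a log2 change of -1.59 (413 to 138 CPM; -0.24 after removal of the length trend).

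WNT genes rose in 18 of 43 cases and fell in 6 (median log2 change 1.01), against 30.2% and 29.6% over all genes tested. AXIN2, a feedback target of canonical WNT signalling, was read at 14.6 and 14.7 CPM in AFE and 56.7 and 55.2 CPM in LPO, a 3.82-fold rise, and LEF1, its nuclear factor, had a log2 change of 2.79. The secreted antagonists moved apart: SFRP5, of anterior endoderm, was read at 40.6 and 39.5 CPM in AFE and 0.249 and 0.441 CPM in LPO, a 116-fold fall, while SFRP1 rose 2.16-fold and WIF1 had a log2 change of 4.22 (4.01 to 74.7 CPM). Among hedgehog genes 9 rose and 4 fell of 15. The ligand SHH was at 14.1 to 17.4 CPM and was not called. The targets did not move as one: GLI1 had a log2 change of 2.27 (3.7 to 17.9 CPM) and PTCH1 fell 2.1-fold, from 87.5 to 41.7 CPM. SMO, the transducer, fell 1.83-fold. Notch genes rose in 7 and fell in 4 of 18 cases, where 30.2% and 29.6% of all genes tested did. The ligand JAG1 was read at 15.6 and 16.3 CPM in AFE and 74.4 and 72.5 CPM in LPO, a 4.6-fold rise, the receptor NOTCH2 rose 4.67-fold, and the target HES1 was read at 138 and 141 CPM in AFE and 55.8 and 57.5 CPM in LPO, a 2.46-fold fall (log2 change -1.30, and -0.25 after removal of the length trend).

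Retinoic acid genes rose in 6 and fell in 7 of 19 cases (median log2 change -0.14), or in 9 and 6 with library size alone. Over all genes tested 30.2% rose and 29.6% fell. The falls included enzymes that break retinoic acid down. CYP26A1 was read at 705 and 694 CPM in AFE and 11.3 and 10.9 CPM in LPO, a 63-fold fall (adjusted p = 7.1e-07), and CYP26C1 fell 90.8-fold, from 32 to 0.35 CPM. CYP26B1, the third such enzyme, rose instead, with a log2 change of 1.32 (170.1 to 424 CPM). RDH10, which makes retinaldehyde, rose 8.27-fold, and ALDH1A2, which makes the acid, had a log2 change of 4.18 (0.527 to 9.57 CPM).

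HOX genes, which record position along the body axis, rose in 22 of 32 cases and fell in 4, with a median log2 change of 2.83 (3.59 after removal of the length trend). Anterior genes of the A and B clusters, HOXA2, HOXB1 and HOXB2, were among the 4 that fell. HOXA2 had a log2 change of -2.55 (126 to 21.5 CPM), HOXB1 one of -3.35 and HOXB2 one of -1.26 (-0.10 after removal of the length trend). HOXA5, which patterns the lung mesenchyme, was read at 1.75 and 1.65 CPM in AFE and 102 and 114 CPM in LPO, a 63.3-fold rise (adjusted p = 6.4e-07). HOXB6 was read at 7.31 and 7.74 CPM in AFE and 196 and 209.6 CPM in LPO, a 27-fold rise, and HOXB9 at 9.65 and 11.3 CPM in AFE and 105 and 108 CPM in LPO, a 10.1-fold rise. HOXC10, a gene of the posterior trunk, was 0 in both AFE libraries and had a mean of 2.38 CPM in LPO.

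The inflammatory and interferon lists are read against 30.2% higher and 29.6% lower over all genes tested. Inflammatory genes rose in 14 of 21 cases and fell in 1, TRAF1, with a median log2 change of 2.47 (2.22 after removal of the length trend). NFKBIA, the inhibitor that NF-kappaB induces, was read at 14.1 and 13.7 CPM in AFE and 106 and 104 CPM in LPO, a 7.55-fold rise (adjusted p = 4.1e-07). ICAM1 and VCAM1, adhesion receptors for leukocytes, rose 10.2-fold (from 8.62 to 88.3 CPM) and 97.8-fold (from 1.33 to 129.9 CPM). The neutrophil attractant CXCL8 had a log2 change of 5.52 (3.33 to 152 CPM). Interferon response genes rose in 9 and fell in 1 of 21 cases (median log2 change 1.05), with 5 higher when LPO replicate 1 was left out. B2M, the light chain of the antigen-presenting complex, rose 4.46-fold, while MX1, a classic target, was at 25.8 to 18.2 CPM and was not called.

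**Figure D5:**
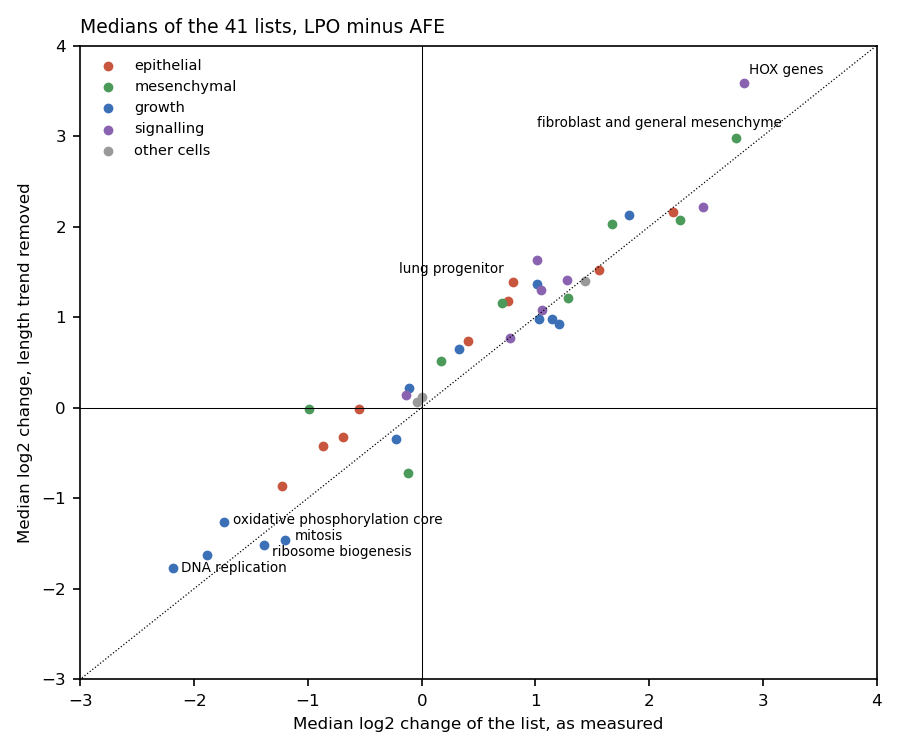
Median log2 change of each of the 41 gene lists as measured (x axis) and after removal of the length trend (y axis), coloured by kind of list; the dotted line marks equal values. The lists of growth machinery lie in the lower left and the fibroblast and HOX lists in the upper right on both scales.

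The largest changes among well expressed genes were named by rule. The 8 largest falls included MTTP, which loads lipid onto lipoproteins, read at 127 and 129 CPM in AFE and 0.985 and 1.01 CPM in LPO, and ESPN, an actin bundler of microvilli, read at 823 and 783 CPM in AFE and 6.5 and 7.06 CPM in LPO. ESPN fell 118-fold (adjusted p = 6.8e-08) and MTTP 128-fold (adjusted p = 1.5e-07). CPN1, a carboxypeptidase made in liver, and CYP17A1, a steroid-making enzyme, had means of 20.4 and 11.9 CPM in AFE and 0 in LPO, at least 136-fold and 79.4-fold lower. EPO (erythropoietin) was at a mean of 9.58 CPM in AFE and 0.0249 CPM in LPO, a ratio of 384 with a 95% counting interval of 68 to 15133. PLA2G2E, a secreted phospholipase, fell 144-fold, and SFRP5 is given above. CRIP3 had means of 13.2 and 0.0504 CPM, a ratio of 263 with a counting interval of 72.8 to 2193, and its gene overlaps SLC22A7.

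Among the 8 largest rises were 4 genes and 2 miRNA entries at 0 in both AFE libraries. The genes were TNMD (10.3 CPM in LPO, at least 52-fold higher), TCN1, a cobalamin carrier (9.49 CPM, at least 47.9-fold), MMP12, the macrophage elastase (9.33 CPM, at least 47.1-fold), and ENPP6, a choline phosphodiesterase (6.76 CPM, at least 34.1-fold). SYT6, a synaptotagmin, was read at 0.0816 and 0.133 CPM in AFE and 30.2 and 28.4 CPM in LPO, a 268-fold rise (adjusted p = 1.4e-06). The miRNA entries, precursors ssc-mir-186 and ssc-mir-421, were at means of 0.476 and 0.451 CPM in LPO. They met the minimum of 5 FPKM through their short length. Their fitted log2 changes of 7.81 and 7.73, by which they were ranked, rest on 0 in AFE. Against the floor they were at least 2.40-fold and 2.28-fold higher. The entry ssc-mir-186 lies in ZRANB2, so its reads cannot be told from that gene's.

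Over 318 KEGG pathways of 10 to 300 tested genes, as the deposited table assigns them, the lowest medians belonged to DNA replication (-2.09, with 32 of 34 genes lower and 1 higher), Ribosome (-1.93, 121 of 125 lower and none higher), One carbon pool by folate (-1.89, 11 of 17 lower), Oxidative phosphorylation (-1.85, 90 of 111 lower) and Mismatch repair (-1.48, 19 of 21 lower). After removal of the length trend the medians of Ribosome and Oxidative phosphorylation were -0.94 and -1.07 and that of DNA replication -1.74. The highest medians were in small pathways of immune or receptor genes: Asthma (2.34, 3 of 11 higher), Viral protein interaction with cytokine and cytokine receptor (2.09, 27 of 57 higher), Inflammatory bowel disease (1.88, 26 of 42 higher), Nicotine addiction (1.57, 13 of 28 higher) and Malaria (1.34, 18 of 35 higher). Over all genes tested 30.2% were higher and 29.6% lower. The rises of Asthma were a smaller share than that, with 7 of its 11 genes not called. With genes at 0 set at their bound the median of Asthma was 0.28.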

How the data were processed

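Bulk messenger RNA of 8 pig libraries (4 stages, 2 libraries each) was deposited as 1 table of 25578 genes with Ensembl identifiers. Its expected counts (estimated read counts per gene, whole numbers, not scaled between libraries) and its FPKM (scaled by transcript length and library size) were made by the authors. Tools named in the submitters' processing notes are StringTie 2.1.6, HISAT2 2.2.1, cutadapt 1.9, edgeR and DESeq2. No genome build is given in these sources. A step of about 4 counts for each read pair was inferred from the counts. Of the low counts (up to 12) of a library, 46.4% to 50.7% were 4, 8 or 12, so many others were off that step. The main tests used the counts as deposited, not divided by 4. With the inferred step the floor of 3 read pairs lies at 12 counts (0.178 to 0.191 counts scaled by library size alone). Folds against a stage at 0 use that floor per library. Intervals cover counting error only. Whether counting used strand is not stated, so genes that overlap another are less certain.

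After filterByExpr, the counts of 19346 genes were fitted with TMM scaling in R 4.3.3 with edgeR 4.0.16 (quasi-likelihood, 4 stages, 8 libraries, 4 residual degrees of freedom). The tests were LPO minus AFE and, for named genes, that change minus the change from DE to AFE, both adjusted by Benjamini-Hochberg over all genes. Adjusted p-values in the text come from this fit unless another is named. Implied length is count over FPKM times the library total, from libraries with at least 0.1 FPKM, and was had for 95.8% of genes tested. Removal of the length trend used a loess of each library's log2 CPM deviations on length as an offset. DESeq2 1.42.0 and limma 3.58.1 (log2 FPKM with pseudocounts 1, 0.5 and 0.1) served as alternatives. The LPO minus AFE test, in the main fit and in the fit without the length trend, was run on simulated counts. The other steps were not. Figures used Python 3.11.15 and matplotlib 3.10.9.

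Named are the core panel of 43 genes (MUC1 and IGF2 were not analysed here), the 8 largest rises and the 8 largest falls among called genes of at least 5 FPKM whose libraries do not overlap, and up to 4 called members of each list by adjusted p; some that this rule names are not reported here. Further members named as examples were chosen after their values were seen. The members and lists were chosen with earlier results of these data known. Promoter motifs were not analysed here.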

Additional observations from a re-analysis of the deposited data

How the results depend on the processing

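With 2 libraries a stage, leaving out 1 library of AFE or LPO in turn left 9336 to 9850 genes called at this step. With the replicate block 10788 were called (5278 higher, 5510 lower), but same-numbered libraries did not deviate together (correlation 0.00184 between AFE and LPO, -0.0136 to 0.00782 over all pairs of stages), so the numbers name libraries and pair none. Limma on log2 FPKM gave 8969, 8941 and 8801 genes higher with pseudocounts of 1, 0.5 and 0.1, and 1944, 2173 and 2591 lower by 2-fold or more; library size alone gave 2608 of the latter. The 5 FPKM filter, which tests 9676 genes, left 2696 higher and 2443 lower by 2-fold or more.

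For each list only rises or only falls were followed. Lists whose followed count moved by over 1.5 times are given here, and the cause was not tested unless fewer genes were tested. Counts in the other direction could move as well. With library size alone, falls went from 8 to 3 (glycolysis and hypoxia) and from 6 to 2 (fibroblast and general mesenchyme). Under the 5 FPKM filter, rises numbered 2 (mature airway), 2 (intestine), 8 (cartilage), 5 (endothelial), 5 (neural), 3 (pluripotency), 5 (Hedgehog) and 4 (Notch), and falls 5 (liver). Limma with pseudocounts 1, 0.5 and 0.1 gave 16, 16 and 15 rises for mature airway, 13 each for EGF, 28, 29 and 29 for WNT and 11 each for Notch. Falls of definitive endoderm numbered 7 with library size alone and with limma at pseudocount 0.1, rises of basal genes 6 with DESeq2, of intestine 5 with the replicate block, and of pluripotency 8 without the length trend. With 1 library left out, rises were 4 to 6 (mature airway), 4 to 5 (intestine) and 5 to 6 (interferon).

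Of 194 named genes recomputed, these reversed. With library size alone and with limma at each pseudocount, CDH2 had a log2 change of 0.16, TOP2A of 0.07, and TAGLN of 0.16 and 0.17. Without the length trend FGFR2 had -0.19, HHEX 0.06 and TAGLN 0.42. Of genes read at under 0.5 CPM, SFTPC, ssc-mir-186 and ssc-mir-421 were not called with the replicate block or with any 1 library left out.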
